A study of Homo sapiens with 6 samples.

Results

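The 39 genes described here encode the glutathione, thioredoxin and NRF2 redox system: the enzymes that make and recycle glutathione, the peroxidases, thioredoxins, glutaredoxins, superoxide dismutases and catalase, the transcription factor NRF2 with its regulators, and several of its target genes. They were chosen by symbol from a list, and all 39 were found among the 12227 genes of the deposited table. RNA sequencing compared PC3 cells carrying shRNA against VprBP (labelled VprBP knockdown, 3 libraries) with PC3 cells carrying control shRNA (labelled WT, 3 libraries). PC3 is an established cell line from a prostate carcinoma metastasis, and VprBP is the product of DCAF1, a substrate receptor of a cullin 4 ubiquitin ligase that has also been described as a histone kinase. The labels state no hairpin sequence, do not say whether cells were pools or clones, and do not say what sets the numbered samples of a group apart. The spread between samples, on which every p-value rests, may thus be technical.

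Cells keep glutathione and thioredoxin reduced at the expense of NADPH, and glutathione peroxidases and peroxiredoxins use these thiols to remove peroxides. NRF2, encoded by NFE2L2, pairs with a small MAF protein on antioxidant response elements and switches on many of these genes. KEAP1, the adaptor of a cullin 3 ubiquitin ligase, presents NRF2 for degradation until oxidants or electrophiles modify it, and BACH1 competes for the same DNA elements.

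The letters of the antioxidant response element core, TGACNNNGC, were searched on both strands in the 250 bases before the RefSeq start (GRCh38.p14), because this is the sequence that NRF2 and small MAF proteins bind. A promoter was found for 30 of the 39 genes, and 3 of these held a match, GCLM, ME1 and TXNRD1, against 10.9% of all 35116 promoters in the table. The matches with 10 bases on either side are shown 5′ to 3′ on the strand of the gene, with the 9 matching letters in capitals. In GCLM they stand on the opposite strand and so read as the reverse complement.
GCLM, chr1:93909446-93909474, minus strand: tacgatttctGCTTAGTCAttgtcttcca
ME1, chr6:83431170-83431198, minus strand: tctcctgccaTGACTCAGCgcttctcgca
TXNRD1, chr12:104215670-104215698, plus strand: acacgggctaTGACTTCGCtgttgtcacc
The matches ended 26, 129 and 91 bases before the start of GCLM, ME1 and TXNRD1. The whole 250 bases before the start follow for the pair whose transcripts fell, again with the match in capitals.
ME1, chr6:83431052-83431301, minus strand: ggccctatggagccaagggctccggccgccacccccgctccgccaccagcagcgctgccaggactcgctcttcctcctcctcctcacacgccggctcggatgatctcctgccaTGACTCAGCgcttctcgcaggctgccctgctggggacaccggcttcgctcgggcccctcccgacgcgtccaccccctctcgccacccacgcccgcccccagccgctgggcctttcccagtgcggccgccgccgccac
TXNRD1, chr12:104215529-104215778, plus strand: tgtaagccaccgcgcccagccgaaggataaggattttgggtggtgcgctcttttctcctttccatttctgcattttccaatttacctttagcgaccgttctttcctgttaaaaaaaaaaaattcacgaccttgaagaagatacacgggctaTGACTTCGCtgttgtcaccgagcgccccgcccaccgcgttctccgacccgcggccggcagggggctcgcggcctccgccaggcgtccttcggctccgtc
A match of letters is a description of the sequence and not a measured binding site, and elements farther from the start lie outside this window.

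The libraries held 23029463 to 39633901 estimated reads in VprBP shRNA cells and 22981889 to 32293166 in Control shRNA cells. Values are the deposited scaled read signal, in which the upper quartile over genes is near 79 in every library. DCAF1 checked the labels: it stood at 38.5, 41.1 and 40.2 in the VprBP shRNA libraries and at 79.4, 78.5 and 78.7 in the Control shRNA libraries, so 50.6% of the control level remained (exact permutation test, two-sided, p = 0.1, the smallest that 3 libraries against 3 allow). The epithelial genes KRT8, KRT18, KRT19, EPCAM, CDH1 and CD44 were all listed, whereas KLK3, which marks luminal prostate cells and is known to be low or absent in PC3, was not among the listed genes. Of 9 markers of blood, endothelial, fibroblast and liver cells, 1 was listed, the endothelial gene PECAM1, at 23.3 ± 0.695 in VprBP shRNA cells and 54.2 ± 1.14 in Control shRNA cells (SD, n = 3 each). The part of PECAM1-expressing cells in the results was not tested.

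Redox genes moved in both directions in equal numbers. Of the 39 genes, 14 were higher and 14 lower in VprBP shRNA cells, and 11 were not called (limma, Benjamini-Hochberg adjusted p under 0.05 over all 12227 genes). Over all genes, 33.0% were called higher and 27.8% lower (4037 and 3404 genes), a split that was nearly even under median-ratio scaling (3723 higher and 3717 lower) and library-size scaling (3751 higher and 3681 lower). The called share was 71.8% among redox genes and 60.9% among all genes. The median log2 fold change was 0.02 for both the redox genes and all genes, and the median absolute log2 fold change was 0.21 for both. The differences were small: called members were 1.08-fold to 1.51-fold higher or 1.13-fold to 1.62-fold lower. Only GSR and GPX1 differed by at least 1.5-fold, 2 of 39 genes, against 12.3% of all genes. When the test asked for more than a 1.2-fold difference (limma treat), 4 members remained higher (GPX1, KEAP1, TXN and PRDX4) against 9.36% of all genes, and 4 remained lower (GSR, TXNIP, CAT and NQO2) against 9.71%. The groups did not overlap for 14 higher and 15 lower members, beside 35.1% and 29.6% of all genes (64.8% in either direction). In bulk RNA, a lower level in every cell and fewer cells that express a gene cannot be told apart.

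**Figure D1:**
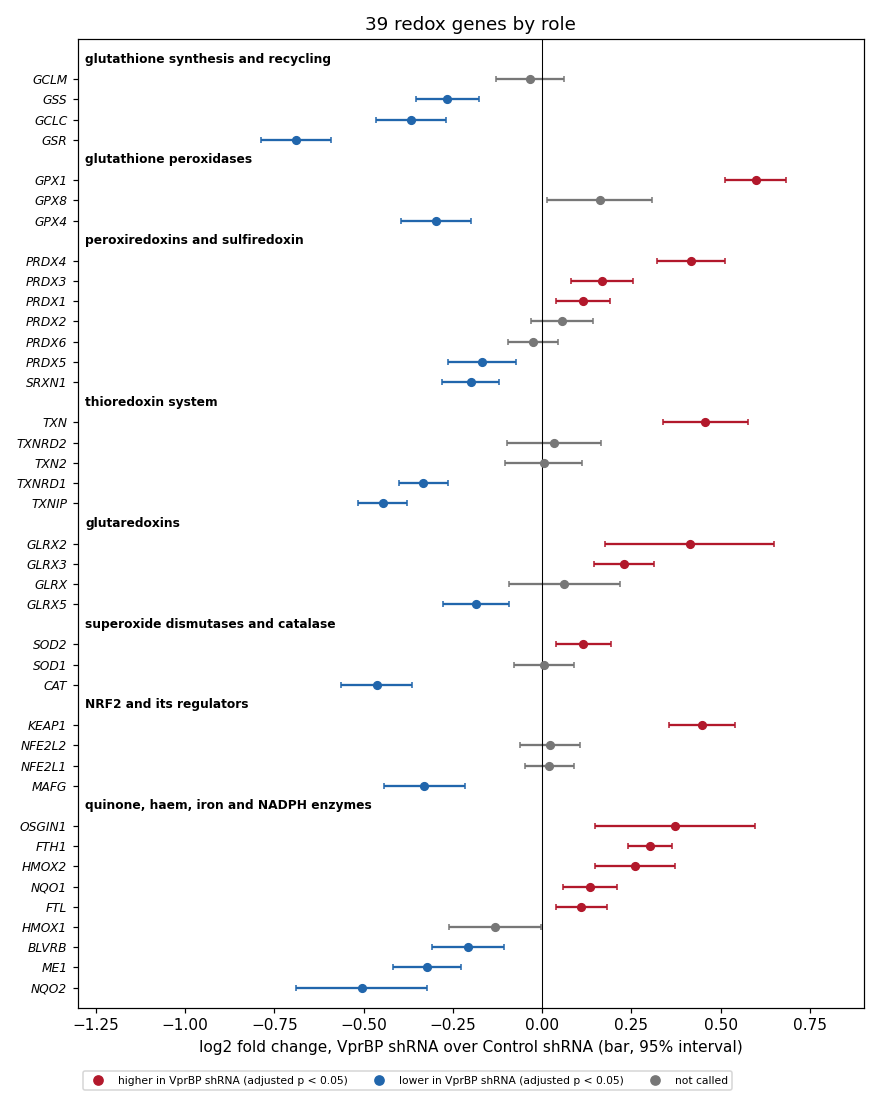
Log2 fold change of VprBP shRNA over Control shRNA cells for the 39 redox genes on the horizontal axis, ordered within roles, with 95% intervals from limma; red marks genes called higher, blue genes called lower and grey genes not called. Most roles hold both red and blue genes, and the 14 higher and 14 lower members lie between GPX1 at 0.60 and GSR at -0.69.

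Genes of glutathione synthesis and recycling were lower or not called, and none was higher: 3 of 4 fell, with a median log2 fold change of -0.32. Among all genes, 27.8% were called lower and 33.0% higher, and a role of 4 genes is a small set. GSR, glutathione reductase, which uses NADPH to return oxidised glutathione to its thiol form, stood at 76.6, 78.8 and 80.1 in the VprBP shRNA libraries and at 121, 135 and 124 in the Control shRNA libraries. Every VprBP shRNA library lay well below every Control shRNA library, a 1.62-fold lower mean (GSR, chr8:30678066-30727846, minus strand, hg38; log2 fold change -0.69, SE 0.05, limma adjusted p = 2.11e-09), the largest decrease among the 39 genes. GCLC, the catalytic subunit of glutamate-cysteine ligase and the rate-limiting step of glutathione synthesis, stood at 81.5, 84.7 and 90.9 in VprBP shRNA libraries and at 108, 115 and 109 in Control shRNA libraries. The groups did not overlap, and the mean was 1.29-fold lower (GCLC, chr6:53497341-53616970, minus strand, hg38; limma adjusted p = 4.30e-06). GSS, glutathione synthetase, which adds glycine in the last step, was 1.2-fold lower, at 96.9 ± 3.21 in VprBP shRNA cells and 117 ± 3.11 in Control shRNA cells (SD, n = 3 each; limma adjusted p = 3.86e-05).

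GCLM, the modifier subunit that raises the affinity of GCLC for glutamate, did not follow GCLC. Its values were 91.6, 96.1 and 98.9 in VprBP shRNA libraries and 93.2, 99.8 and 100.2 in Control shRNA libraries. The groups overlapped, and the 95% interval of the log2 fold change ran from -0.13 to 0.06 (limma adjusted p = 0.538). Within each library, the ratio of GCLC to GCLM values was 0.890, 0.882 and 0.920 in VprBP shRNA cells and 1.16, 1.15 and 1.09 in Control shRNA cells, without overlap. This is a ratio of scaled read signals of transcripts, which differ in length, and protein subunits were not measured.

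**Figure D2:**
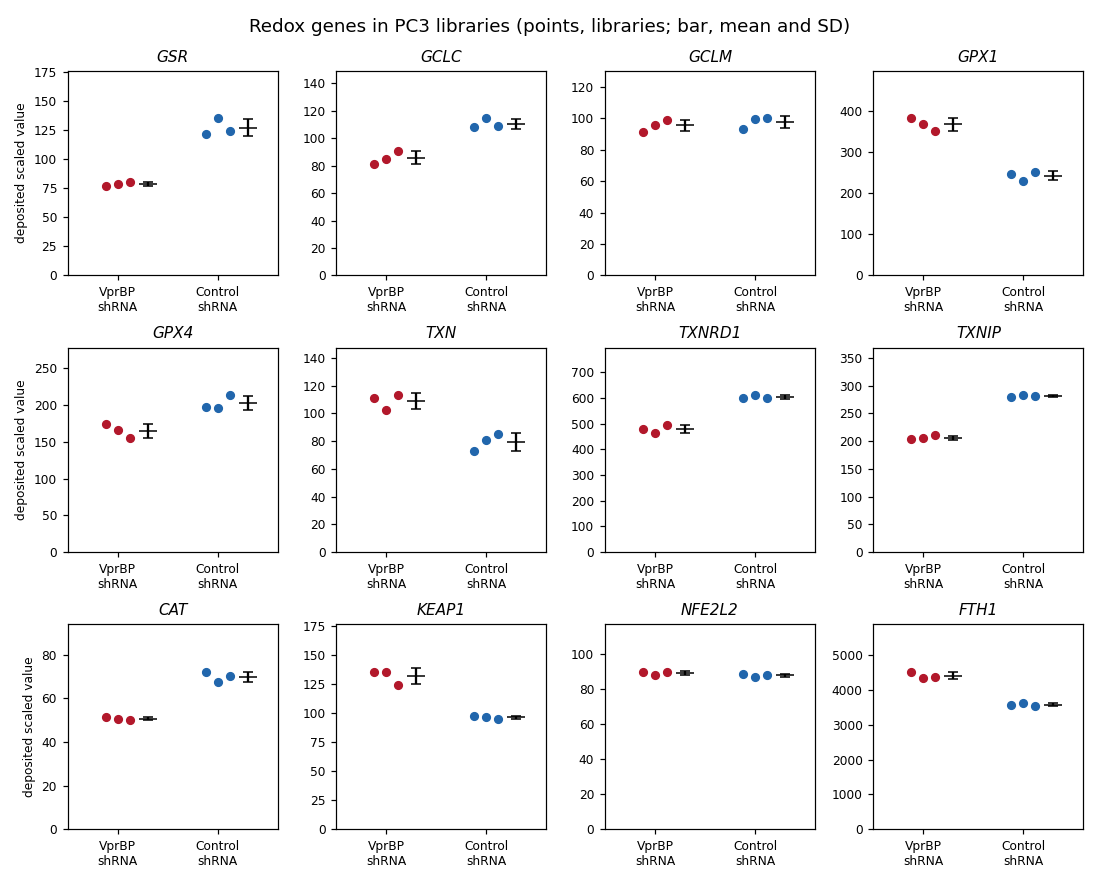
Scaled value on the vertical axis, from 0, in each of the 3 VprBP shRNA libraries (red, left) and 3 Control shRNA libraries (blue, right) for 12 redox genes, with the mean and SD beside the points. GSR, GCLC, GPX4, TXNRD1, TXNIP and CAT lie lower without overlap in VprBP shRNA libraries, GPX1, TXN, KEAP1 and FTH1 lie higher, and GCLM and NFE2L2 overlap.

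The glutathione peroxidases split. GPX1, the abundant cytosolic and mitochondrial selenoenzyme that reduces hydrogen peroxide, had the largest increase among the 39 genes. It stood at 383, 369 and 352 in VprBP shRNA libraries and at 247, 230 and 251 in Control shRNA libraries, a 1.51-fold higher mean (GPX1, chr3:49357174-49358605, minus strand, hg38; log2 fold change 0.60, SE 0.04, limma adjusted p = 2.53e-09). All VprBP shRNA libraries lay above all Control shRNA libraries. GPX4, the selenoenzyme that reduces lipid hydroperoxides in membranes and protects from ferroptosis, moved the other way. Its values were 174, 166 and 155 in VprBP shRNA libraries and 198, 196 and 214 in Control shRNA libraries, a 1.23-fold lower mean without overlap (limma adjusted p = 3.38e-05). GPX8, a membrane protein of the endoplasmic reticulum, was not called at 33.8 ± 1.42 in VprBP shRNA cells and 30.2 ± 3.0 in Control shRNA cells (SD, n = 3 each; limma adjusted p = 0.0570), and it was called higher without Control shRNA replicate 2 (limma adjusted p = 0.00707).

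The ratio of GPX1 to GPX4 values was 2.21, 2.22 and 2.27 in VprBP shRNA libraries and 1.25, 1.17 and 1.18 in Control shRNA libraries. Per kilobase of transcript, taken as the median length of the coding transcripts in GENCODE 29, GPX1 and GPX4 stood at 362 and 190 in VprBP shRNA cells and at 239 and 234 in Control shRNA cells. The levels per kilobase were thus close in Control shRNA cells and apart in VprBP shRNA cells. GPX1 overlaps a gene on the same strand listed only under its identifier, ENSG00000290318, at 11.7 ± 2.02 in VprBP shRNA cells and 7.85 ± 0.881 in Control shRNA cells (SD, n = 3 each). Its pseudogene GPX1P1 was listed too, at 7.50 ± 1.59 and 5.75 ± 1.02 in VprBP shRNA and Control shRNA cells (SD, n = 3 each). Both were a small share of the GPX1 signal.

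Of the 6 peroxiredoxins, which reduce peroxides through a reactive cysteine, PRDX1, PRDX3 and PRDX4 rose, PRDX5 fell, and PRDX2 and PRDX6 were not called. PRDX4, the peroxiredoxin of the endoplasmic reticulum, changed most, at 123, 118 and 121 in VprBP shRNA libraries and 86.4, 96.3 and 88.5 in Control shRNA libraries. That was a 1.34-fold higher mean without overlap (limma adjusted p = 7.39e-07). The mitochondrial PRDX3 was 1.12-fold higher, at 230 ± 11.9 in VprBP shRNA cells and 204 ± 6.19 in Control shRNA cells (SD, n = 3 each; limma adjusted p = 0.00196). The cytosolic PRDX1 was 1.08-fold higher (limma adjusted p = 0.0112), and this call was lost without Control shRNA replicate 1 (limma adjusted p = 0.0651). PRDX5, found in mitochondria, peroxisomes and cytosol, was 1.13-fold lower, at 172 ± 6.01 in VprBP shRNA cells and 194 ± 12.3 in Control shRNA cells (SD, n = 3 each; limma adjusted p = 0.00385). PRDX6, which uses glutathione as its reductant, gave 616, 574 and 612 in VprBP shRNA libraries and 610, 615 and 606 in Control shRNA libraries, so the groups overlapped. SRXN1, sulfiredoxin, which repairs overoxidised peroxiredoxins and is a target of NRF2, fell to 169 ± 6.11 in VprBP shRNA cells, against 194 ± 4.56 in Control shRNA cells (SD, n = 3 each; limma adjusted p = 0.000239).

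In the cytosolic thioredoxin system, thioredoxin was higher while its reductase and its inhibitor were lower. TXN, the small dithiol protein that reduces peroxiredoxins and ribonucleotide reductase, stood at 111, 102 and 113 in VprBP shRNA libraries and at 72.6, 80.5 and 85.1 in Control shRNA libraries. Its mean was 1.37-fold higher without overlap (TXN, chr9:110243810-110256507, minus strand, hg38; log2 fold change 0.46, SE 0.06, limma adjusted p = 2.92e-06). TXNRD1, the selenoenzyme that reduces thioredoxin with NADPH, stood at 477, 464 and 494 in VprBP shRNA libraries and at 598, 612 and 598 in Control shRNA libraries. It was 1.26-fold lower (limma adjusted p = 1.85e-07), again without overlap. TXNIP, an arrestin-like protein that binds reduced thioredoxin and restrains glucose uptake, stood at 203, 206 and 210 in VprBP shRNA libraries and at 280, 283 and 281 in Control shRNA libraries. Its libraries agreed closely within each group, and the mean was 1.36-fold lower (limma adjusted p = 6.44e-09).

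Ratios within a library brought these opposite differences together. TXN over TXNIP was 0.529 ± 0.0270 in VprBP shRNA cells and 0.282 ± 0.0217 in Control shRNA cells, and TXN over TXNRD1 was 0.228 ± 0.00653 in VprBP shRNA cells and 0.132 ± 0.0105 in Control shRNA cells (SD, n = 3 each). Per kilobase of transcript, TXN and TXNRD1 stood at 145 and 125 in VprBP shRNA cells and at 106 and 157 in Control shRNA cells, so their order differed between the groups. This order rests on the median length of annotated coding transcripts, 11 for TXNRD1 and 2 for TXN, and the forms expressed here are not known. TXNRD1 also overlaps the pseudogene RPL18AP3 on the same strand, at 391 ± 26.9 in VprBP shRNA cells and 403 ± 9.37 in Control shRNA cells (SD, n = 3 each). The mitochondrial partners showed no called difference. TXN2, mitochondrial thioredoxin, stood at 63.8 ± 3.31 in VprBP shRNA cells and 63.5 ± 2.56 in Control shRNA cells, and its reductase TXNRD2 at 26.8 ± 0.824 in VprBP shRNA cells and 26.1 ± 0.792 in Control shRNA cells (SD, n = 3 each). The 95% intervals of their log2 fold changes ran from -0.10 to 0.11 and from -0.10 to 0.16. No strand setting is given, so reads of members that overlap another gene cannot be told apart from that gene's reads. Only some of the overlapping genes are named beside the results.

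**Figure D3:**
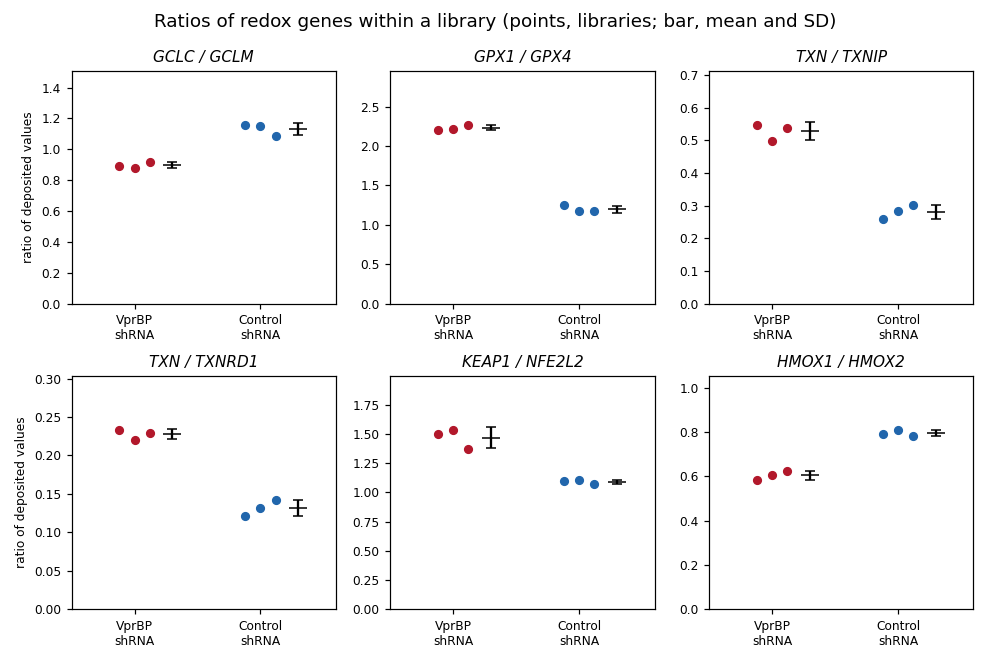
Ratio of the scaled values of 2 genes within each library on the vertical axis, from 0, for VprBP shRNA libraries (red, left) and Control shRNA libraries (blue, right), with the mean and SD beside the points. The groups are apart for all 6 ratios: GPX1 over GPX4, TXN over TXNIP, TXN over TXNRD1 and KEAP1 over NFE2L2 are higher in VprBP shRNA libraries, and GCLC over GCLM and HMOX1 over HMOX2 are lower.

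Among the glutaredoxins, which use glutathione to reduce protein disulfides or carry iron-sulfur clusters, GLRX2 and GLRX3 rose, GLRX5 fell and GLRX was not called. GLRX2, the dithiol glutaredoxin of mitochondria, was low and spread widely, at 17.2, 13.8 and 12.9 in VprBP shRNA libraries and 11.7, 11.4 and 9.38 in Control shRNA libraries (1.35-fold higher mean, limma adjusted p = 0.00448). Replicate 1 was the highest library of the VprBP shRNA group, and the groups did not overlap. GLRX3, a cytosolic monothiol glutaredoxin that handles iron-sulfur clusters, stood at 106 ± 2.13 in VprBP shRNA cells and 90.6 ± 0.768 in Control shRNA cells (SD, n = 3 each; limma adjusted p = 9.65e-05). GLRX5, its mitochondrial counterpart in iron-sulfur cluster assembly, fell to 68.9 ± 1.38 in VprBP shRNA cells, against 78.4 ± 1.87 in Control shRNA cells (SD, n = 3 each; limma adjusted p = 0.00152). GLRX, the cytosolic dithiol form, overlapped between the groups at 21.3 ± 0.760 in VprBP shRNA cells and 20.4 ± 1.58 in Control shRNA cells (SD, n = 3 each).

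CAT, the peroxisomal catalase, fell, and the superoxide dismutases barely differed. Catalase values were 51.4, 50.7 and 49.9 in VprBP shRNA libraries and 72.3, 67.7 and 70.2 in Control shRNA libraries, a 1.38-fold lower mean (log2 fold change -0.46, SE 0.05, limma adjusted p = 3.02e-07). The groups were far apart relative to their spread. SOD1, the copper-zinc enzyme of the cytosol, stood at 166 ± 6.21 in VprBP shRNA cells and 165 ± 5.28 in Control shRNA cells (SD, n = 3 each), with a 95% interval of the log2 fold change from -0.08 to 0.09. SOD2, the manganese enzyme of mitochondria and a known NF-kB target, was 1.08-fold higher, at 190 ± 4.77 in VprBP shRNA cells and 175 ± 4.15 in Control shRNA cells (SD, n = 3 each; limma adjusted p = 0.0115), and this call was lost without Control shRNA replicate 1 (limma adjusted p = 0.0732). SOD2 overlaps WTAP and ACAT2 on the opposite strand, and both of these rose, ACAT2 1.83-fold and WTAP 1.39-fold. Their part in the SOD2 signal was not tested.

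The transcript of NRF2 itself was not called different, whereas KEAP1 was higher and MAFG lower. NFE2L2 stood at 90.2, 88.1 and 90.2 in VprBP shRNA libraries and at 88.7, 87.1 and 88.5 in Control shRNA libraries. The groups overlapped, and the 95% interval of the log2 fold change ran from -0.06 to 0.11 (limma adjusted p = 0.645). NFE2L2 overlaps AGPS and HNRNPA3 on the opposite strand, the second of which was 1.22-fold higher. NFE2L1, a related factor that restores proteasome genes, overlapped between the groups as well, at 265 ± 4.33 in VprBP shRNA cells and 262 ± 5.15 in Control shRNA cells (SD, n = 3 each).

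KEAP1 stood at 135, 135 and 124 in VprBP shRNA libraries and at 97.6, 96.0 and 95.03 in Control shRNA libraries. Replicate 3 was the lowest of the VprBP shRNA libraries and still lay above every Control shRNA library, and the mean was 1.37-fold higher (log2 fold change 0.45, SE 0.04, limma adjusted p = 1.91e-07). The ratio of KEAP1 to NFE2L2 values was 1.47 ± 0.0873 in VprBP shRNA cells and 1.09 ± 0.0159 in Control shRNA cells (SD, n = 3 each). MAFG, one of the small MAF proteins that NRF2 needs to bind DNA, stood at 60.5, 63.5 and 59.0 in VprBP shRNA libraries and at 83.2, 73.0 and 74.6 in Control shRNA libraries. It was 1.26-fold lower without overlap (limma adjusted p = 5.56e-05), while SIRT7, which overlaps it on the same strand, was 1.37-fold higher.

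Enzymes and proteins of quinone, haem, iron and NADPH metabolism also split, 5 of 9 higher, 3 lower and 1 not called, beside 33.0% of all genes called higher and 27.8% called lower. NQO1, the quinone reductase often used to read NRF2 activity, stood at 186, 182 and 187 in VprBP shRNA libraries and at 164, 172 and 170 in Control shRNA libraries, a 1.10-fold higher mean (limma adjusted p = 0.00378). Its relative NQO2, which takes electrons from dihydronicotinamide riboside, went the other way, at 12.4, 11.1 and 10.8 in VprBP shRNA libraries and 17.6, 15.8 and 16.1 in Control shRNA libraries. NQO2 was 1.44-fold lower without overlap (limma adjusted p = 9.75e-05). ME1, cytosolic malic enzyme, which makes NADPH, stood at 76.0, 78.8 and 83.3 in VprBP shRNA libraries and at 101.4, 100.2 and 96.2 in Control shRNA libraries, a 1.25-fold lower mean (limma adjusted p = 1.26e-05). ME1 and TXNRD1, whose promoters are printed above because their transcripts fell, were lower by similar folds. GCLM, which carries the same core letters nearest to its start, was not called. A link between the letters and these values was not tested. A match was found in 3 of the 30 members with a promoter, beside 10.9% of all promoters. OSGIN1, a growth inhibitor induced by oxidative stress, was the least abundant member, at 8.62 ± 0.371 in VprBP shRNA cells and 6.55 ± 0.347 in Control shRNA cells (SD, n = 3 each; 1.32-fold higher, limma adjusted p = 0.00616).

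In haem breakdown, the inducible and the constitutive haem oxygenase genes differed in direction of their values. HMOX1, the inducible enzyme, stood at 25.7, 25.8 and 26.7 in VprBP shRNA libraries and at 29.3, 29.3 and 27.4 in Control shRNA libraries. The groups did not overlap, but the gene was not called (log2 fold change -0.13, SE 0.06, limma adjusted p = 0.0729). It was called lower with median-ratio scaling (limma adjusted p = 0.0363), library-size scaling (0.0378) and limma-voom on estimated reads (0.0299). HMOX2, the constitutive enzyme, was 1.2-fold higher, at 43.2 ± 0.845 in VprBP shRNA cells and 36.0 ± 0.970 in Control shRNA cells (SD, n = 3 each; limma adjusted p = 0.000439), and it overlaps NMRAL1 on the opposite strand. BLVRB, biliverdin reductase B, was 1.16-fold lower, at 57.4 ± 0.964 in VprBP shRNA cells and 66.4 ± 2.70 in Control shRNA cells (SD, n = 3 each; limma adjusted p = 0.00122).

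FTH1, the ferroxidase heavy chain of ferritin, was by far the most abundant of the 39 genes, also per kilobase of transcript. It stood at 4532, 4346 and 4379 in VprBP shRNA libraries and at 3567, 3637 and 3552 in Control shRNA libraries, a 1.23-fold higher mean without overlap (FTH1, chr11:61959718-61967634, minus strand, hg38; limma adjusted p = 1.98e-07). FTL, the light chain, was 1.08-fold higher, at 392 ± 13.8 in VprBP shRNA cells and 363 ± 5.85 in Control shRNA cells (SD, n = 3 each; limma adjusted p = 0.0100), and this call was lost without VprBP shRNA replicate 1 (limma adjusted p = 0.0625). GENCODE 29 names 25 pseudogenes after FTH1 and 16 after FTL, and reads may be split between them. Of the 6 listed FTH1 pseudogenes, FTH1P10, FTH1P20, FTH1P2 and FTH1P11 were called higher and FTH1P8 and FTH1P7 were not called, with means between 29.4 and 101.1 in VprBP shRNA cells and between 23.3 and 83.8 in Control shRNA cells. FTLP3, the listed FTL pseudogene, was called 1.22-fold higher. TXN has 7 pseudogenes of that kind in GENCODE 29, and none of them was among the listed genes.

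Other genes of these pathways were counted from lists drawn up by function, and each count stands beside 33.0% of all genes called higher and 27.8% called lower. Of 24 listed genes of glutathione supply, turnover and conjugation, 11 fell and 5 rose, leaving 8 uncalled; the median log2 fold change was -0.09, beside 0.02 for all genes. CTH, which makes cysteine from cystathionine, was 3.04-fold lower, at 11.4 ± 0.438 in VprBP shRNA cells and 34.7 ± 2.45 in Control shRNA cells, and CHAC1, which degrades glutathione, was 2.51-fold lower (SD, n = 3 each; limma adjusted p = 2.73e-11 and 9.18e-11). GSTO1, an omega-class glutathione transferase, was 1.69-fold higher, at 40.7 ± 1.02 in VprBP shRNA cells and 24.1 ± 0.951 in Control shRNA cells (SD, n = 3 each), and MGST3, a microsomal member of the family, was 1.49-fold higher. The list for NADPH supply also held pathway neighbours that do not make NADPH themselves. Of its 14 listed genes, 6 fell and 3 rose, leaving 5 uncalled (median on the log2 scale 0.04). PGD, which makes NADPH in the pentose phosphate pathway, was 1.26-fold higher, at 208 ± 5.06 in VprBP shRNA cells and 165 ± 4.03 in Control shRNA cells (SD, n = 3 each; limma adjusted p = 6.97e-07). MTHFD2 was 1.23-fold lower and MTHFD2L, its paralogue in folate metabolism, 1.72-fold higher.

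Of 15 partners and turnover factors of NRF2, 4 rose and 5 fell, leaving 6 uncalled (median on the log2 scale -0.03). DPP3 and SQSTM1, both of which bind KEAP1 in competition with NRF2, were 1.54-fold and 1.25-fold higher. NFE2L3, a factor of the same family, fell to 120 ± 4.41 in VprBP shRNA cells, against 199.9 ± 5.84 in Control shRNA cells, and BACH1 to 59.99 ± 2.58 in VprBP shRNA cells, against 86.2 ± 2.69 in Control shRNA cells (SD, n = 3 each; limma adjusted p = 1.35e-10 and 9.40e-08). CUL3, the cullin that works with KEAP1, stood at 94.98 ± 2.42 in VprBP shRNA cells and 96.7 ± 3.19 in Control shRNA cells (SD, n = 3 each) and was not called.

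Other NRF2 targets leaned to lower values: of 25 listed, 17 fell and 5 rose, leaving 3 uncalled, beside 27.8% lower and 33.0% higher among all genes, and the median was -0.53 on the log2 scale. Each aldo-keto reductase of this list fell, and AKR1B10 fell most, 5.39-fold, followed by AKR1C2, 4.43-fold, with reads that close paralogues may share. CBR3, a carbonyl reductase, was 1.99-fold higher, at 26.4 ± 0.298 in VprBP shRNA cells and 13.3 ± 1.68 in Control shRNA cells (SD, n = 3 each; limma adjusted p = 5.39e-08), and TRIM16 was 1.56-fold higher. Of 25 further thioredoxin-fold and methionine sulfoxide reductase genes, 11 rose and 3 fell, leaving 11 uncalled (median on the log2 scale 0.13). TXNDC15 and TXNDC9 were 1.74-fold and 1.36-fold higher, and SESN2, a stress-induced sestrin, was 1.82-fold lower, followed by TXNDC5, an endoplasmic reticulum disulfide isomerase, at 1.15-fold lower.

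**Figure D4:**
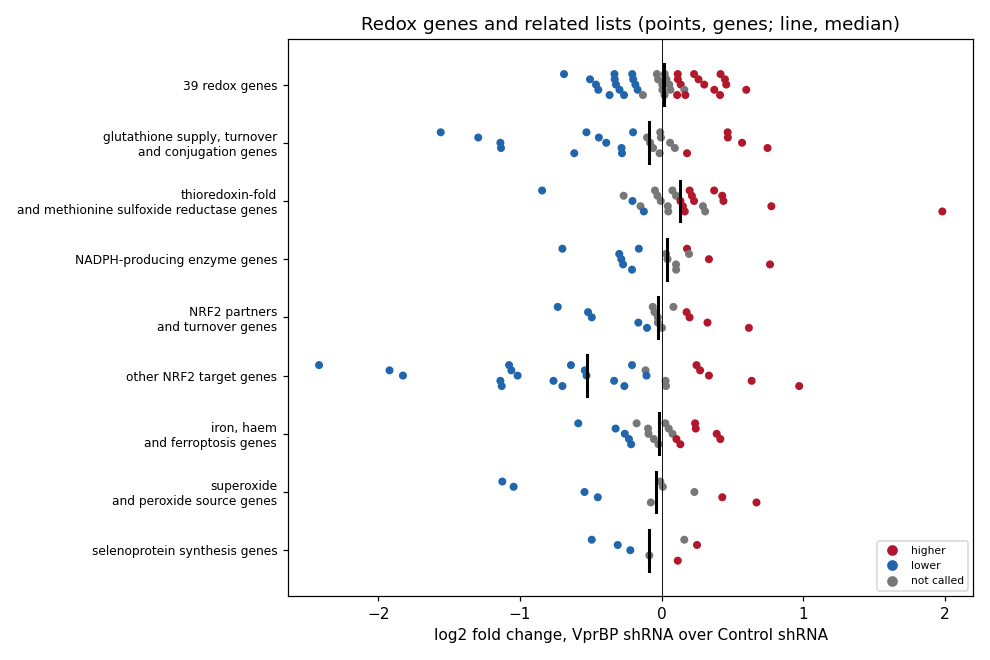
Log2 fold change of VprBP shRNA over Control shRNA cells on the horizontal axis for the 39 redox genes and 8 related lists, 1 point per gene, with a black line at the median of each list; red, blue and grey mark genes called higher, called lower and not called. The median is -0.53 for the other NRF2 targets and 0.13 for the thioredoxin-fold genes, and the remaining medians lie between -0.09 and 0.04.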

How the data were processed

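RNA was measured in 3 VprBP shRNA and 3 Control shRNA libraries. The authors call the deposited values raw counts, yet most values in a library are multiples of 1 fractional step, so they were treated as a scaled signal. Within a tolerance of 0.02 reads, 55.0% to 64.8% of a library's values were whole multiples, too few for a count test, and depth was estimated as the summed values divided by the step. Partek and hg38 are named in the submitters' processing notes; no source used here gives the aligner, quantifier, strand setting or scaling. All 12227 genes were tested with limma 3.58.1 (R 4.3.3) on log2(signal + 0.5) with a trended prior, a scale that understates changes of low genes; p-values are two-sided with Benjamini-Hochberg adjustment, and folds are ratios of group means. On simulated data, the procedure recovered 43% of 100 genes changed 1.2-fold and 99% of 100 genes changed 2-fold, with 8 false calls. The simulation added counting noise on top of the measured spread of the genes. Only the genes changed 1.2-fold and 2-fold differed between the groups among the 12227 simulated, whereas 60.9% of all genes were called in the measured data. The adjusted p cut-off was thus stricter in the simulation, and the recovered share at 1.2-fold need not hold for the measured data. Small differences may still stay uncalled, and the log2 fold changes of the uncalled members ran from -0.13 to 0.16. Every gene in the table has 150 or more estimated reads in at least 1 library. Members and lists were chosen with earlier results of these data known. From each list, the 2 called genes with the largest increase and the 2 with the largest decrease at a mean of at least 5 are named, except that some genes are not reported here; CUL3 was chosen after its values were seen.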

Additional observations from a re-analysis of the deposited data

How the results depend on the processing

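All 13 alternatives to the fit (2 scalings, 2 pseudocounts, a mean of at least 5, limma-voom, the replicate block and 6 fits without 1 library) kept the direction of all 28 called members, and 25 of them kept their call in each. Leaving out 1 library gave 12 to 15 higher and 14 members lower, and 3643 to 4017 genes higher and 3054 to 3388 lower in all. Under median-ratio and library-size scaling, 14 members were higher and 15 lower, and in all 3723 and 3751 genes were higher and 3717 and 3681 lower. Under limma treat against a fold of 1.2, 4 members were higher and 4 lower, and 1144 and 1187 of all genes. The same-numbered libraries did not deviate together (correlations 0.0180, -0.157 and -0.168), and no VprBP shRNA library correlated best with its own number. The replicate block gave 14 higher and 14 lower members, and 3826 higher and 3216 lower genes in all; it changed no call of a member. Log2 fold changes near 0 changed sign in uncalled members. Under median-ratio scaling, library-size scaling and limma-voom these were -0.021, -0.018 and -0.012 for TXN2, -0.019, -0.017 and -0.015 for SOD1, -0.0049, -0.0023 and -0.0027 for NFE2L1, and -0.0030, -0.00043 and -0.00099 for NFE2L2. Leaving out 1 library gave a range from -0.032 to 0.043 for TXN2, from -0.015 to 0.037 for SOD1 and from -0.043 to 0.0080 for PRDX6. The median log2 fold change over all genes was 0.024 as deposited, -0.0010 under median-ratio scaling and 0.0015 under library-size scaling. The cause of the sign changes was not tested. Members around a value of 10 (OSGIN1, GLRX2, NQO2) had the widest standard errors.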

Other observations

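Among genes that produce superoxide or peroxide, NOX5, a calcium-regulated NADPH oxidase, was abundant in PC3 cells and lower in VprBP shRNA cells. It was listed under 2 identifiers that overlap on chromosome 15: the first stood at 518 ± 4.94 in VprBP shRNA cells and 1129 ± 16.3 in Control shRNA cells, and the other at 47.1 ± 1.19 in VprBP shRNA cells and 97.6 ± 2.17 in Control shRNA cells (SD, n = 3 each; limma adjusted p = 1.02e-14 and 7.59e-12). Of the 10 listed entries of this list, 4 fell and 2 rose, leaving 4 uncalled (median on the log2 scale -0.04), beside 27.8% of all genes called lower and 33.0% called higher, which holds for the lists that follow as well. QSOX1 and ERO1A, oxidases that form disulfides in the secretory pathway and release hydrogen peroxide, were 1.59-fold and 1.35-fold higher (limma adjusted p = 3.60e-10 and 1.54e-08).

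Of 19 listed iron, haem and ferroptosis genes, 6 rose and 5 fell, leaving 8 uncalled (median on the log2 scale -0.02). ALAS1, the first enzyme of haem synthesis, fell to 118 ± 0.684 in VprBP shRNA cells, against 177 ± 5.34 in Control shRNA cells (SD, n = 3 each; limma adjusted p = 1.05e-09), and LPCAT3, a lysophospholipid acyltransferase, was 1.26-fold lower. UROD, a later haem enzyme, and FBXL5, the iron-sensing F-box protein, were 1.34-fold and 1.32-fold higher. Of 7 selenoprotein synthesis genes, 2 rose and 3 fell, leaving 2 uncalled (median on the log2 scale -0.09). SEPHS2 and SEPHS1 were 1.19-fold and 1.08-fold higher, and SCLY and SEPSECS were 1.42-fold and 1.24-fold lower.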
